A study of Mus musculus with 12 samples.

Results

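The enzymes that buffer ATP in muscle were followed in the white portion of the gastrocnemius, a calf muscle region made mostly of fast fibres, of mice without gamma3, a regulatory subunit of the AMP-activated kinase AMPK. The set comprised 8 enzyme genes: the creatine kinases Ckm, Ckmt2 and Ckb, the adenylate kinases Ak1 and Ak3, the AMP deaminases Ampd1 and Ampd3, and the adenylosuccinate synthase Adssl1. Members were taken as the probe sets, each reading 1 stretch of transcript, that the platform annotation assigns to a member alone. This gave 10 probe sets for 7 of the 8 genes, out of 22626 probe sets and 12393 genes in all. Ampd1 had no such probe set and was not analysed here.

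The study measured 6 AMPK gamma3 knockout mice and 6 wild type littermates on 1 MOE430A array each. All were C57BL/6 males of generation F7, aged 14 weeks and fasted overnight. The array records describe the knockouts as homozygous and the muscle as taken from the right leg in 12 of 12 animals. How the allele was made is not given in the sources used here. Prkag3, the gene of the gamma3 subunit, was not analysed here, and the genotype labels stand without a check on that transcript.

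ATP in a contracting fibre is held up by several linked reactions. Creatine kinases move phosphate between phosphocreatine and ADP, and adenylate kinases turn pairs of ADP into ATP and AMP. AMP deaminases remove AMP as IMP, which adenylosuccinate synthase and adenylosuccinate lyase return to AMP in the purine nucleotide cycle. AMP produced by adenylate kinases is the signal that gamma subunits of AMPK bind, and gamma3 is found mainly in fast glycolytic muscle.

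Values are RMA intensities made by the authors, and every level and difference below is on the log2 scale. RMA sets the arrays to nearly the same distribution, with array medians here between 132.2 and 139.5 intensity units, which hides any shift common to most transcripts. Differences are knockout minus wild type from limma over 6 against 6 arrays, with standard errors (SE), 95% intervals and p-values adjusted by Benjamini-Hochberg over all 22626 probe sets. The number of arrays limits the precision. The tissue label was set beside fibre markers, which cannot tell the white portion from other fast muscle. The fast fibre genes Actn3 (14.07 in knockout and 14.04 in wild type) and Myh4 (13.52 in knockout and 13.49 in wild type) were bright, and the fast fibre list differed by 0.0043 in mean level. Of its 10 genes 6 were above 0 and 4 below. Most sat near the top of the scale, where RMA gives nearly the same value on each array, so a small change is poorly visible. The dimmest, Myh1, gave -0.11 ± 0.0713 (limma, adjusted p = 0.898), at a probe set that can match other transcripts. The slow fibre level, given below, differed widely among the pieces. Arrays were grouped by the day and hour of the hybridization date in their records. This gave 3 groups, called wash runs below, and every run held 2 knockout and 2 wild type arrays. The 3' over 5' log2 ratio at control probe sets for Actb and Gapdh, which reflects RNA quality, ran from -0.218 to 0.0017 in knockout and from -0.184 to -0.0962 in wild type.

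None of the 10 member probe sets passed an adjusted p of 0.05, a threshold passed by 0.0133% of all probe sets (3 of 22626, all lower in knockout). At an unadjusted p below 0.05 there were 2 of the 10, Ckmt2 and Ampd3, both lower in knockout, beside 6.04% of all probe sets at that level and 2.69% in that direction. In the other direction there were 0 of 10, beside 3.35%. The genotypes overlapped at all 10 probe sets, and 0.38% of all probe sets showed no overlap. The median difference of the 10 was -0.048, against -0.0047 over all probe sets, with 7 below 0 and 3 above. With 1 probe set per gene, 4 of 7 genes were below 0 and the median was -0.012, against -0.0043 over all genes. The median SE of the 10 was 0.0579, close to the 0.0602 over all probe sets, and the plot of array values shows the spread of each.

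**Figure D1:**
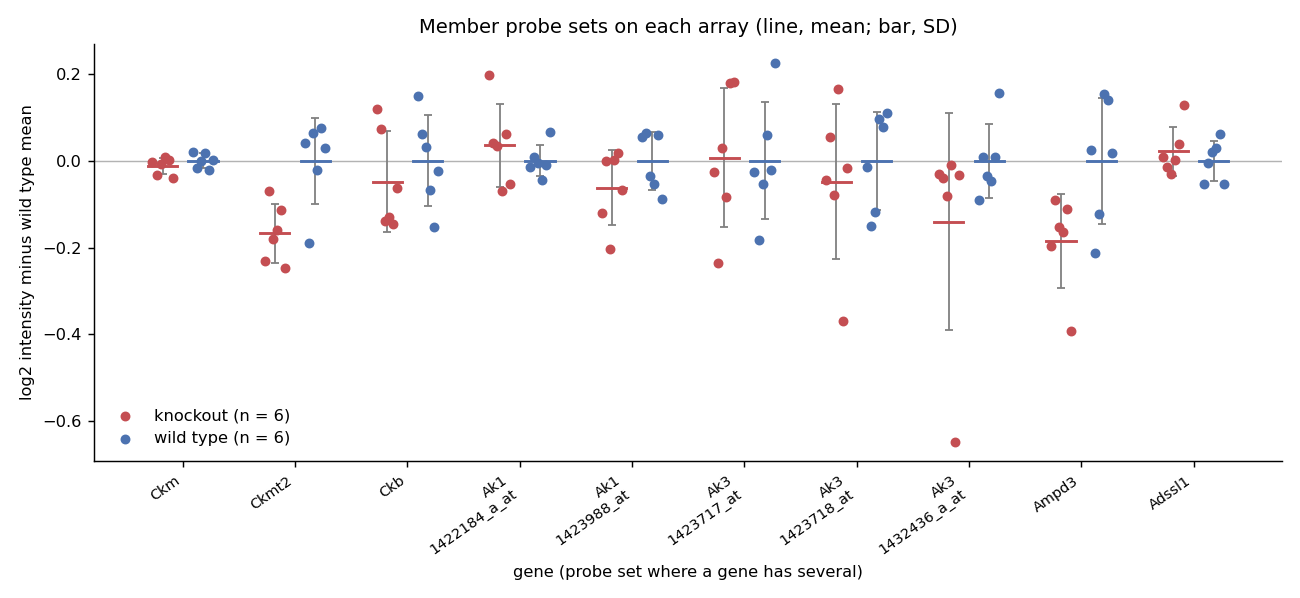
Log2 intensity of each member probe set on each array, as the difference from its wild type mean (vertical axis), with 6 knockout arrays left and 6 wild type arrays right of each gene. Lines mark means and bars SDs. For Ckmt2, 5 of 6 wild type arrays lie above every knockout array, and 1 knockout array lies far below the others at the dimmest Ak3 probe set.

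Among the creatine kinases, Ckm encodes the cytosolic muscle enzyme bound in part to the myofibril, Ckmt2 the enzyme of the mitochondrial intermembrane space that makes phosphocreatine at the site of ATP export, and Ckb the cytosolic brain-type enzyme. The 250 bases before the RefSeq start (build GRCm38.p6) are shown for Ckmt2 and Ckm, the pair that joins mitochondrion and myofibril and that gave the largest and the smallest difference of the 3 kinases. Ckmt2 lies on the minus strand at chr13:91876886-91877135 and Ckm on the plus strand at chr7:19410844-19411093. Capitals mark E-boxes, the letters CANNTG, a core recognised by myogenic factors of the MyoD family.
Ckmt2: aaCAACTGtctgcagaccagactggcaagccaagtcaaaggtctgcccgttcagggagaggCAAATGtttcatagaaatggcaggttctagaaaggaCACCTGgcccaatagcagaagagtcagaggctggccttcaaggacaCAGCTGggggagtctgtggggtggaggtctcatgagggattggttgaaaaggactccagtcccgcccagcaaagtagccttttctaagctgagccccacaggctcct
Ckm: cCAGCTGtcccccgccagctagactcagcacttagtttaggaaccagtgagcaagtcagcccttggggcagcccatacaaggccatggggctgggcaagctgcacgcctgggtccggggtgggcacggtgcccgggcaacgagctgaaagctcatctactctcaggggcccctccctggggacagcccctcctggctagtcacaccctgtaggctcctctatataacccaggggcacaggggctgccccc

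The Ckmt2 window held 4 E-boxes and the Ckm window 1, and 66.2% of 32851 such windows in the RefSeq table hold at least 1, counted on both strands with no overlap among those shown. Other searched letters were TATAAA (in 12.4% of all windows), TNAAGGTCA (in 1.14%) and TGACGTCA (in 1.55%), none of them found in either window, and GGGCGG (in 32.7%), found once in the Ckmt2 window. These matches describe letters only, and these arrays hold no binding data.

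Ckmt2 had the smallest p of the members. Its knockout arrays ran from 11.97 to 12.15 with a median of 12.05, against 12.03 to 12.30 with a median of 12.26 in wild type. All 6 knockout arrays lay below the wild type median, and 5 of 6 wild type arrays lay above the highest knockout array. The exception was wild type replicate 2 at 12.03. The mean was 12.06 ± 0.0681 in knockout and 12.22 ± 0.0990 in wild type (SD, n = 6 each). The difference was -0.17 ± 0.0536 (SE), equal to -10.9% with an interval from -17.6% to -3.66%. It ranked 200 of 22626 by p and missed the threshold (limma, adjusted p = 0.716). Its size exceeded the SD within either genotype but not the full range of either, and without wild type replicate 2 it was -0.20 (limma, adjusted p = 0.553). Within wash runs 1, 2 and 3 it was -0.16, -0.11 and -0.23. In pieces of whole muscle, fewer cells of a type and less RNA per cell cannot be told apart. Ckmt2 was read by 1 probe set.

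Ckm, at the other end of the phosphocreatine shuttle, was nearly constant. It ran from 14.24 to 14.29 in knockout, with a median of 14.27, and from 14.26 to 14.30 in wild type, with a median of 14.28. The difference was -0.012 ± 0.0389 (limma, adjusted p = 0.983), an interval from -6.34% to 4.97%. Ckm sat near the top of the scale, whose highest value was 14.41, and held rank 3 or 4 of 22626 on every array. RMA gives such ranks nearly the same value on each array, and after a further quantile normalization the difference was 0. A small change of Ckm is therefore poorly visible in these values.

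Ckb varied more between animals than between genotypes. It ran from 7.71 to 7.97 in knockout, with a median of 7.75, and from 7.70 to 8.001 in wild type, with a median of 7.86. The difference was -0.048 ± 0.0622 (limma, adjusted p = 0.96), an interval from -11.7% to 5.96%. Within wash runs 1, 2 and 3 it was 0.054, -0.18 and -0.017, so the sign was not shared by the runs. Nerve and smooth muscle also contain Ckb. The smooth muscle list, measured in 6 of 6 genes, ran from -0.059 to 0.040 in knockout and from -0.071 to 0.10 in wild type in mean centred level. The nerve and Schwann cell list, measured in 5 of 8 genes, ran from -0.090 to 0.14 in knockout and from -0.16 to 0.072 in wild type. Their part in the Ckb signal was not tested.

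**Figure D2:**
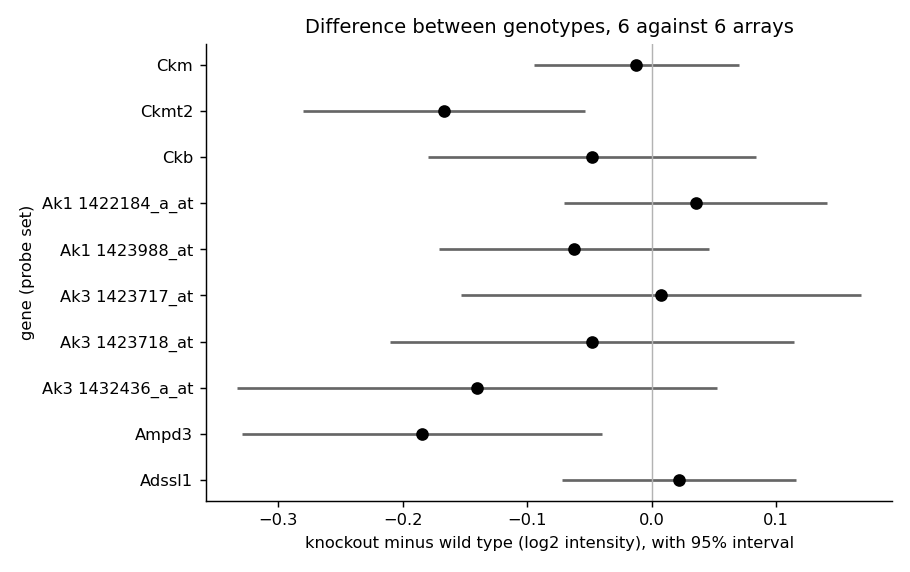
Knockout minus wild type in log2 intensity (horizontal axis) for each member probe set, with 95% intervals from limma over 6 against 6 arrays. The intervals of Ckmt2 (-0.28 to -0.054) and Ampd3 (-0.33 to -0.040) lie below 0 before adjustment and the other 8 include 0.

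Adenylate kinase 1, encoded by Ak1, is the main cytosolic isoform of skeletal muscle, and Ak3 encodes an isoform of the mitochondrial matrix that uses GTP. At its brighter probe set, Ak1 ran from 12.24 to 12.51 in knockout, with a median of 12.35, and from 12.27 to 12.38 in wild type, with a median of 12.30. The highest value, 12.51, was knockout replicate 1, and the groups overlapped, with the knockout arrays more widely spread. The difference was 0.035 ± 0.04997 (limma, adjusted p = 0.964), an interval from -4.74% to 10.3%, and it was 0.0028 without that array. The dimmer Ak1 probe set, below the median level of all probe sets, gave -0.062 ± 0.0513 (limma, adjusted p = 0.92), the opposite sign. Over the 12 arrays the Ak1 probe sets did not follow each other (r = -0.36, rho = -0.30), so the gene has no single reading here.

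The 3 Ak3 probe sets differed as well. The brightest ran from 8.78 to 9.20 in knockout and from 8.83 to 9.24 in wild type, with medians of 9.02 in knockout and 8.99 in wild type. Its difference was 0.0074 ± 0.0762 (limma, adjusted p = 0.994), an interval from -10.1% to 12.4%. The middle and the dimmest probe set gave -0.048 ± 0.0768 and -0.14 ± 0.0912 (limma, adjusted p = 0.966 and 0.898). These followed each other over the arrays (r = 0.78, rho = 0.36), and without knockout replicate 5, an array left out after its values were seen, r was 0.35 (rho = 0.17, n = 11). That animal was lowest at both. It had 8.22 at the middle and 6.84 at the dimmest probe set, where the other knockouts lay between 7.40 and 7.48. Without it the dimmest probe set differed by -0.039. The brightest probe set did not show that animal as low. The same array had the highest 3' over 5' ratio, 0.0017, where the other 11 ran from -0.218 to -0.0744, and the lowest array median, 132.2. Their part in its Ak3 values was not tested.

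Of the enzymes that remove and return AMP, Ampd3 encodes the AMP deaminase named after the erythrocyte and also present in muscle. Its knockout arrays ran from 7.05 to 7.35 with a median of 7.28, against 7.23 to 7.59 with a median of 7.46 in wild type. All 6 knockout arrays lay below the wild type median, and 4 of 6 wild type arrays lay above the highest knockout array. The mean was 7.26 ± 0.109 in knockout and 7.44 ± 0.145 in wild type (SD, n = 6 each). The difference was -0.18 ± 0.0685, equal to -12.0% with an interval from -20.4% to -2.73%. It ranked 430 of 22626 by p and missed the threshold (limma, adjusted p = 0.781). Within wash runs 1, 2 and 3 it was -0.23, 0.0091 and -0.33, so 1 run gave a value near 0. It was -0.14 without knockout replicate 6, the lowest array, and -0.23 without wild type replicate 2. Ampd3 was read by 1 probe set, whose level was close to the median of all probe sets.

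Adssl1, the muscle isoform of adenylosuccinate synthase, was steady. It ran from 12.22 to 12.38 in knockout and from 12.20 to 12.31 in wild type, with a median of 12.26 in both. The difference was 0.022 ± 0.0445 (limma, adjusted p = 0.976), an interval from -4.86% to 8.38%.

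The level of slow fibre genes differed widely among these pieces of muscle and moved with both Ckmt2 and Ampd3. The mean centred level of 10 slow fibre genes, such as the myosin Myh7 and the troponin Tnnc1, ran from -0.64 to 0.87 in knockout and from -0.57 to 0.89 in wild type. The genotype means were -0.16 ± 0.556 in knockout and 0.16 ± 0.580 in wild type (SD, n = 6 each), and 9 of 10 genes were below 0, none past the threshold. Over the 12 arrays this level correlated with Ampd3 at r = 0.78 (rho = 0.86) and with Ckmt2 at r = 0.57 (rho = 0.65). Without the 2 arrays farthest from the median, r was 0.85 for Ampd3 and 0.68 for Ckmt2. Within 6 knockouts r was 0.59 for Ampd3 and 0.74 for Ckmt2, and within 6 wild types it was 0.96 for Ampd3 and 0.42 for Ckmt2. The middle Ak3 probe set also moved with it (r = 0.63, rho = 0.66), with r = 0.42 within knockouts and 0.95 within wild types, while the brightest probe sets of the other 5 members, Ak3 included, lay between r = -0.25 for Adssl1 and r = 0.082 for Ckm. Other marker lists moved with the same genes. The fast fibre level correlated with Ckmt2 at r = 0.40 (rho = 0.35), with r = 0.33 within knockouts and 0.94 within wild types, and with Ampd3 at r = 0.39 (rho = 0.34). That level rests mostly on values that RMA holds nearly constant, with an SD of 0.0329 in knockout and 0.0308 in wild type. The nerve and Schwann cell level correlated at r = -0.56 (rho = -0.60) with Ckmt2 and at r = -0.61 (rho = -0.63) with Ampd3. Without the 2 arrays farthest from the median of each list, r with the fast fibre level was 0.19 for Ckmt2 and 0.28 for Ampd3. With the nerve and Schwann cell level it was -0.34 for Ckmt2 and -0.41 for Ampd3. In the latter list, S100b, Nefl and Nefm lay below the median level of all probe sets. The part of these lists in either result was not tested. The points share their arrays and their normalization, and these values are descriptions.

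In a fit that also held the slow fibre level, the genotype difference was -0.14 for Ckmt2 and -0.13 for Ampd3 (limma, adjusted p = 0.661 and 0.689). In wash run 2, where the slow fibre level differed by 0.39, the Ckmt2 difference was -0.11 and that of Ampd3 was 0.0091. In wash run 3, where it differed by -1.10, they were -0.23 and -0.33. The plot against slow fibre level shows wild type replicate 2 low in all of these measures.

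**Figure D3:**
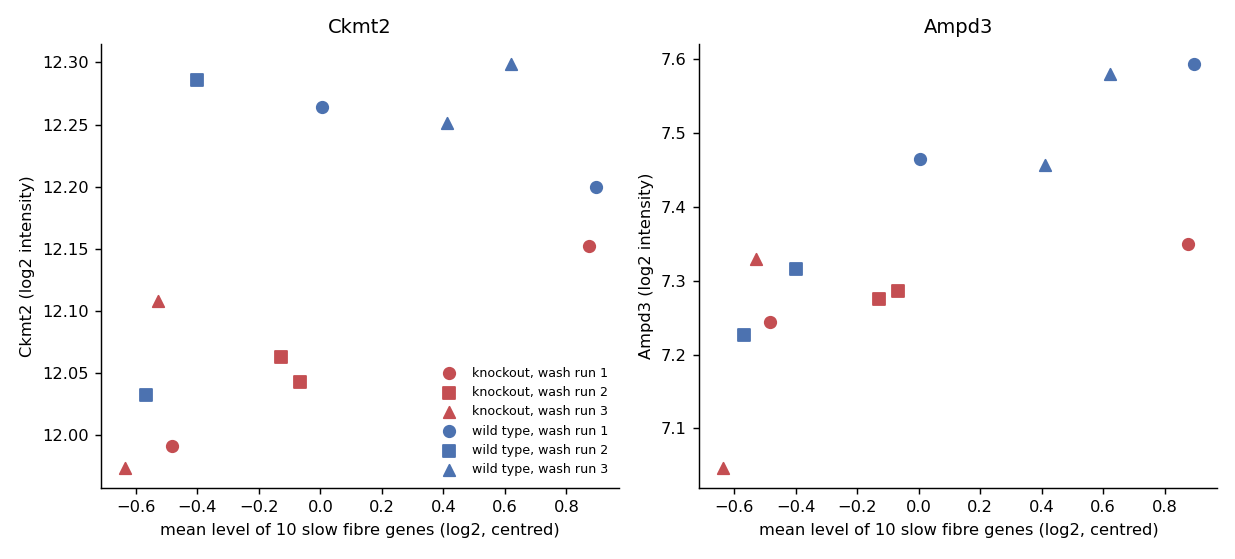
Log2 intensity of Ckmt2 (left) and Ampd3 (right) against the mean centred log2 level of 10 slow fibre genes on each of 12 arrays, with colour for genotype (knockout red, wild type blue) and symbol for wash run. Ampd3 is higher on arrays with a higher slow fibre level (r = 0.78), and Ckmt2 less closely so (r = 0.57).

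Red cell markers were also set beside Ampd3, a choice made after its values were seen. Of 6 listed genes 4 were measured, and all 4 were below 0. The anion exchanger Slc4a1 gave -0.18 ± 0.0568, the haem synthesis enzyme Alas2 -0.19 ± 0.0886, the globin Hba-a1 -0.044 ± 0.0679 and Epb42 -0.041 ± 0.0634 (limma, adjusted p = 0.707, 0.818, 0.964 and 0.964). Relative to the median of all probe sets, mean levels were -0.82 for Slc4a1, 1.36 for Alas2, -0.99 for Hba-a1 and -0.83 for Epb42, so most of the list was dim. The mean centred level of the 4 genes ran from -0.12 to 0.041 in knockout and from -0.039 to 0.19 in wild type. It correlated over 12 arrays at r = 0.69 (rho = 0.68) with Ampd3 and at r = 0.61 (rho = 0.66) with Ckmt2. Within knockouts r was 0.48 for Ampd3 and 0.65 for Ckmt2, and within wild types it was 0.47 for Ampd3 and 0.018 for Ckmt2. With genotype means subtracted it was 0.47 for Ampd3 and 0.24 for Ckmt2. With this level as a covariate the difference was -0.087 for Ampd3 and -0.13 for Ckmt2 (limma, adjusted p = 0.981 for both). The part of red cells in either result was not tested further. RMA values carry no detection call, so no marker can be called absent.

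The members did not move as 1 group between animals. After the mean of each genotype was subtracted, 21 pairs of members were compared over 12 arrays, and Ckmt2 with Ampd3 had the highest r, 0.66 (rho = 0.54). Ckb with Ak1 came next at r = 0.46 (rho = 0.24). The lowest was Ckm with Adssl1 at r = -0.47 (rho = -0.34). Ckmt2 and Ckm, the pair of the phosphocreatine shuttle, gave r = 0.17 (rho = -0.084). Pairs with Ckm rest on values that RMA holds nearly constant.

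The wider network of creatine and purine nucleotide genes gave no gene past the threshold, which 0.0242% of all genes passed. Of 47 listed genes 37 were measured, 17 above 0 and 20 below, with a median of -0.0081. At an unadjusted p below 0.05 there were 3, all higher in knockout, against 6.23% of 12393 genes at that level and 3.37% in that direction, and 0 were lower, against 2.86%. The values of each gene by role are shown in the plot of gene lists.

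**Figure D4:**
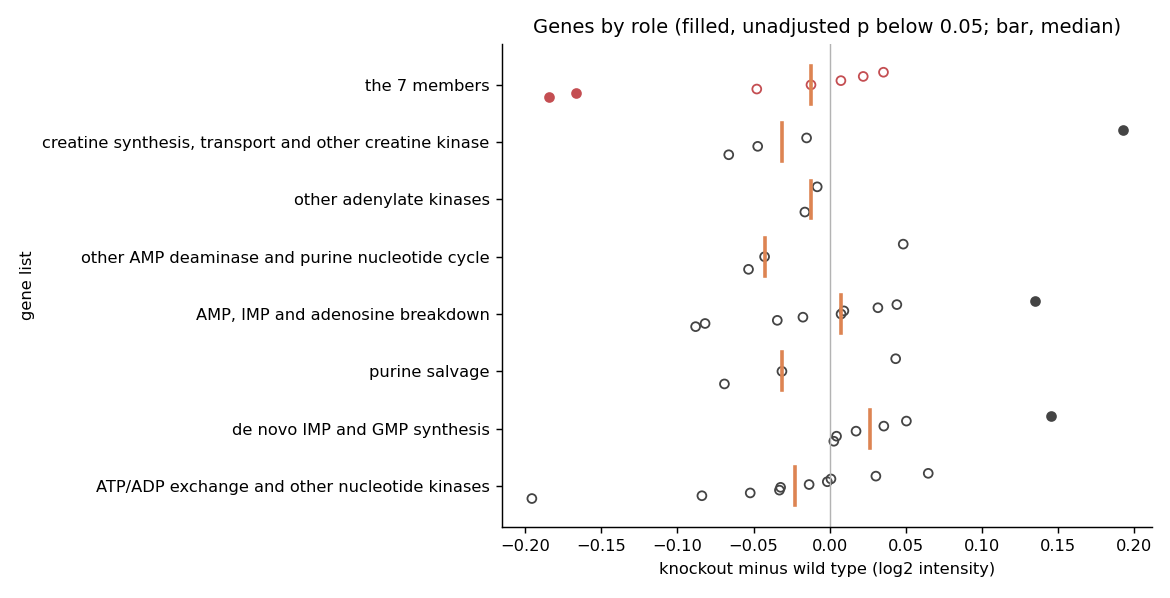
Knockout minus wild type in log2 intensity (horizontal axis) for the 7 members and for 37 other genes of creatine and purine nucleotide metabolism, by role. Each circle is a gene at its brightest probe set, filled where the unadjusted p is below 0.05, and the bar is the median of the list. Filled circles are Ampd3 and Ckmt2 among members and Gamt, Ahcy and Ppat elsewhere.

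In creatine supply, Gamt, which makes creatine by methylating guanidinoacetate, had the smallest p, with levels of 7.77 ± 0.153 in knockout and 7.58 ± 0.0860 in wild type (SD, n = 6 each). Its difference was 0.19 ± 0.0671 (limma, adjusted p = 0.781). The creatine transporter Slc6a8 gave -0.066 ± 0.0735, with -0.062 at its dimmer probe set (limma, adjusted p = 0.955 for both). The other adenylate kinases measured, Ak4 of the mitochondrial matrix and the brain isoform Ak5, gave -0.016 ± 0.0719 and -0.0081 ± 0.0535 (limma, adjusted p = 0.99 and 0.994).

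In the purine nucleotide cycle, adenylosuccinate lyase, Adsl, gave 0.048 ± 0.0682 (limma, adjusted p = 0.964). The AMP deaminase Ampd2 gave -0.053 ± 0.0591 at its brighter probe set and 0.21 ± 0.0806 at its dimmer one (limma, adjusted p = 0.955 and 0.783), so its probe sets disagreed in sign. In the list of AMP and adenosine breakdown, Ahcy gave 0.14 ± 0.0629 and adenosine deaminase, Ada, -0.082 ± 0.0641 (limma, adjusted p = 0.818 and 0.918). Ahcy splits S-adenosylhomocysteine into adenosine and homocysteine, and so forms adenosine and does not break it down. In the salvage list, Aprt, which recovers adenine as AMP, gave 0.043 ± 0.0524, with -0.058 at its dimmer probe set (limma, adjusted p = 0.955 and 0.943). Guanine deaminase, Gda, listed there although it removes guanine and does not salvage it, gave -0.069 ± 0.0520 (limma, adjusted p = 0.912).

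All 6 measured genes of new IMP and GMP synthesis were above 0, with a median of 0.027, beside 47.4% of all genes above 0. Ppat, which takes the first committed step, gave 0.15 ± 0.0673 and Gart, an enzyme of 3 steps of the same route, 0.050 ± 0.0544 (limma, adjusted p = 0.818 and 0.955). The other Ppat probe set gave 0.050, and those of Gart -0.072 and -0.052. In the list of ATP/ADP exchange and nucleotide kinases, 7 of 10 genes were below 0. An ATP/ADP carrier, Slc25a5, gave -0.20 ± 0.0998 and the nucleoside diphosphate kinase Nme1 -0.084 ± 0.0467 (limma, adjusted p = 0.854 and 0.876). These readings came from probe sets with the suffix x, whose probes can match other transcripts, and the 7 other Slc25a5 probe sets lay between -0.073 and 0.095. The other Nme1 probe set gave 0.0085. Without wild type replicate 6 the Slc25a5 difference was -0.099. The brighter ATP/ADP carrier Slc25a4, at 13.41 in knockout and 13.43 in wild type, gave -0.013 ± 0.0430 (limma, adjusted p = 0.983).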

How the data were processed

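The deposited series table holds intensities on a linear scale. RMA was run by the authors, according to the submitters' processing notes, which name no version. Array records (day and hour of the hybridization date, module, cage letter) were read for batches, and the genotype note matched the label on 12 of 12 arrays. Of 22690 probe sets, 64 controls were left out, log2 was taken, and knockout (6 arrays) was compared with wild type (6 arrays) in limma 3.58.1 (R 4.3.3) by lmFit and eBayes (two-sided, genotype alone in the model, Benjamini-Hochberg over 22626 probe sets). The procedure was tested on simulated data with independent noise and planted differences larger than that of any member. That test does not cover differences of the size found here. A probe set was assigned to a gene only where the platform annotation names that gene alone (20380 probe sets), and each gene is represented by its brightest probe set. Members and lists were chosen with earlier results of these data known. Named are all members and, of each of 7 pathway lists, the 2 genes with the smallest p, and also Slc25a4 as the brighter ATP/ADP carrier. Correlations are descriptions, without p-values. The design text calls the 6 mice of a genotype biological replicates.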

Additional observations from a re-analysis of the deposited data

Results flagged for a closer look

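Of 20 groups of 6 arrays (10 member probe sets in each genotype), 3 held an array far from the others by Dixon's test at the 95% level, where chance flags about 1 in 20 groups. Wild type replicate 2 was low for Ckmt2, at 12.03 on the log2 scale, with the next wild type array at 12.20. Knockout replicate 5 was low for Ak3 at its dimmest probe set, at 6.84, with the next knockout array at 7.40, and its 3' over 5' ratio was the highest of the 12 arrays. Knockout replicate 6 was low for Ampd3, at 7.05, with the next knockout array at 7.24. Wild type replicate 2 and knockout replicate 6 were also the lowest arrays of their genotype in slow fibre level, at -0.57 for the wild type and -0.64 for the knockout array.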

How the results depend on the processing

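No alternative brought a member or pathway probe set past the threshold, and the count over all probe sets was 2 or 3 in every fit. With the replicate number as a block it was 2, and 0 members passed, with Ckmt2 at adjusted p = 0.656 and Ampd3 at adjusted p = 0.666. Arrays sharing a number also shared a cage letter in the array records. Their deviations correlated at -0.15 to 0.203, over 0.1 in 2 of 6 pairs, and 1 of 12 arrays correlated best with its own number. Whether the numbers pair the animals cannot be told from these values. Ckmt2 stayed below 0 in all 23 alternatives (-0.20 to -0.13) and Ampd3 likewise (-0.23 to -0.087), the smallest size being that with the erythroid level as a covariate, which was added after seeing the data, as were the cage letter and fluidics module as blocks. Differences near 0 changed sign, and apart from the averaging of probe sets the cause was not tested. After centring on array medians Ak5 was 0.0036, and after a further quantile normalization Ak5 was 0.00048 and Ak3 -0.010 (brightest probe set). With the slow fibre covariate Ak3 was -0.0058 (brightest) and 0.0044 (middle). With all probe sets of a gene averaged, Ak1 was -0.013, Ak3 -0.060, Ampd2 0.077, Aprt -0.0070 and Gart -0.025, each a mean over probe sets that disagreed in sign. With the erythroid covariate Ak3 was -0.055, Ak4 0.031 and Ak5 0.040, and with the fluidics module as a block Ak3 was 0.0085 (middle). Leaving out 1 array gave -0.029 to 0.056 for Ak3 (brightest), -0.091 to 0.016 for Ak3 (middle), -0.062 to 0.014 for Ak4 and -0.033 to 0.018 for Ak5. Dim probe sets are limited by signal over background.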

Other observations

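The genes most like each member over the 12 arrays, after genotype means were subtracted and among 10378 probe sets above the median level, were different for each member. For Ckmt2 they were the co-chaperone Dnajb2 (r = 0.88, rho = 0.80) and Acaa2, a mitochondrial thiolase of fatty acid oxidation (r = 0.88, rho = 0.63). For Ampd3 they were Ldhb, the lactate dehydrogenase subunit typical of oxidative muscle (r = 0.92, rho = 0.88), and the matrix protein Prelp (r = 0.91, rho = 0.85). For Ak1 they were Slc16a3, a lactate exporter of glycolytic muscle (r = 0.89, rho = 0.84), and the translation factor Eif5a (r = 0.82, rho = 0.44).

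For Ckm they were Hhatl (r = 0.97, rho = 0.95) and Iscu, a scaffold of iron-sulphur cluster assembly (r = 0.93, rho = 0.96). For Ckb they were the DNA repair enzyme Mgmt (r = 0.92, rho = 0.91) and Aldh4a1, a mitochondrial enzyme of proline breakdown (r = 0.88, rho = 0.89). For Ak3 they were Qrsl1 (r = 0.98, rho = 0.94) and Ppp1r2, an inhibitor of protein phosphatase 1 (r = 0.94, rho = 0.90). For Adssl1 they were Dgcr2 (r = 0.86, rho = 0.83) and the tachykinin receptor Tacr3 (r = 0.85, rho = 0.83). These are the highest of many coefficients over few arrays and are given as descriptions. Those of Ckm rest on a small SD, 0.0194 in knockout and 0.0167 in wild type, at ranks where RMA gives nearly the same value on each array.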
